A study of Mus musculus with 9 samples.

Results

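The 10 genes described here encode enzymes that hydroxylate or crosslink collagen. They are prolyl 4-hydroxylase subunits (P4ha1, P4ha2, P4ha3 and P4hb), lysyl hydroxylases (Plod1, Plod2 and Plod3) and lysyl oxidases (Lox, Loxl1 and Loxl2). They were found by matching symbols to the Ensembl identifiers of the count tables, which list 46078 genes for the cultured cells and 38293 for muscle tissue, and all 10 were matched in both. The set was chosen by the lower values of P4ha1 and P4ha3 in lactate-treated cells, so the lactate values below are a description and were not tested. RNA sequencing was available for C57BL/6 mice from primary myoblasts (MB, 2 libraries), from myotubes differentiated from them for 3 days (MT, 2 libraries), from MB given 10 mM sodium-L-lactate (2 libraries) and from the gastrocnemius muscle (GAS, 3 libraries). The labels give the strain as C57BL/6, and the methods describe young adult females of C57Bl6/J. MB and MT served as controls and received PBS, the vehicle of lactate. MB were grown in serum with basic FGF on Matrigel, a basement membrane matrix, and MT were obtained by a switch to low-serum medium. The labels call the libraries of a group biological replicates, and each p-value measures the spread between these libraries.

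Collagen chains are modified while they enter the endoplasmic reticulum. Prolyl 4-hydroxylase is a tetramer of alpha subunits, which carry the active site, and beta subunits, which are the protein disulfide isomerase P4hb, and its product 4-hydroxyproline makes the triple helix stable at body temperature. Lysyl hydroxylases modify lysines within the helix and, in the case of Plod2, in the telopeptides at its ends. Outside the cell, lysyl oxidases turn lysines and hydroxylysines into aldehydes that join collagen and elastin molecules into fibers. Prolyl and lysyl hydroxylases need oxygen, iron, ascorbate and 2-oxoglutarate, lysyl oxidases need copper, and several of these genes are known targets of the hypoxia-inducible factors. In skeletal muscle, crosslinked collagen gives the extracellular matrix its stiffness.

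The 3 catalytic alpha subunit genes had different patterns in the cultured cells, and the 250 bases before their RefSeq transcription starts are given so that these promoters can be set beside the values. The sequences are from RefSeq on GRCm38.p6, on the plus strand, at chr10:59323046-59323295 for P4ha1, chr11:54100674-54100923 for P4ha2 and chr7:100285270-100285519 for P4ha3. Capitals mark ACGTG and GCGTG on either strand, the core letters of the element bound by hypoxia-inducible factors, of which ACGTG is also part of the palindrome CACGTG.
P4ha1: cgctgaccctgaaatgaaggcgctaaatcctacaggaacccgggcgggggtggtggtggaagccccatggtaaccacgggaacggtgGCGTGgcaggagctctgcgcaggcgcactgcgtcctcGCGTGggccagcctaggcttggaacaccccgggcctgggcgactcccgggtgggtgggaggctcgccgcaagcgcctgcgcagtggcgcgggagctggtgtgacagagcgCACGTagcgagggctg
P4ha2: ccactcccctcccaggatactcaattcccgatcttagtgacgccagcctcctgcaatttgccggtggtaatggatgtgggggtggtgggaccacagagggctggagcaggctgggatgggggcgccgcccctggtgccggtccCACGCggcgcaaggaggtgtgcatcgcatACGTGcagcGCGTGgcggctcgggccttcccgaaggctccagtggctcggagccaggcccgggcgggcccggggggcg
P4ha3: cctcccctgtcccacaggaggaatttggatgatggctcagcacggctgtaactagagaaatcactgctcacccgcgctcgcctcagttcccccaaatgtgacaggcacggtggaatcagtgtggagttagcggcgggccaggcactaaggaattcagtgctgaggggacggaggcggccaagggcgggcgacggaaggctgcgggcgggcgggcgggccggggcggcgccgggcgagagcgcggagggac

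The windows of P4ha1 and P4ha2 held 3 matches each and that of P4ha3 held 0. Among the other members with a window, P4hb had 2 matches, Plod1 had 1 and Plod3 had 4. No window was taken for Plod2, Lox, Loxl1 and Loxl2. Of 32851 promoter windows of this length, 38.6% held at least 1 match. The windows of these genes were rich in G and C, from 55.6% for Plod3 to 70% for P4ha2, beside a median of 52.4% over all windows. CAGCTG, a letter sequence bound by myogenic factors, was found in 0 of the 6 windows and in 13% of all windows. A match describes letters and no binding was measured here. According to GENCODE M21, P4ha1 spans chr10:59323296-59373304, P4ha2 chr11:54100095-54131665 and P4ha3 chr7:100285520-100319699, so that the P4ha2 window lies within the GENCODE gene, whose annotated start is further upstream.

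Between 5198247 and 10839516 reads per library were counted on genes for the cultured cells, and between 19307793 and 19941574 for GAS. Levels are given as CPM (counts scaled to library size, normalized by TMM) and, to compare genes, as RPKM, the CPM per kilobase of exon. A count of 3, taken here as the detection floor, corresponded to between 0.223 and 0.533 CPM in the cultured cells and at most 0.156 CPM in GAS, and this covers counting error only. All 6 myotube markers (Myog, Ckm, Acta1, Tnnt3, Myh3 and Mymk) were higher in MT. Their summed levels were 210 and 97.6 CPM in MB and 10740 and 13890 CPM in MT. Ckm passed the filter on low counts through the MT libraries alone. Of the 6 myoblast markers, the stem cell factor Pax7 was lower in MT (log2FC −4.11, edgeR adjusted p = 0.00224). The others did not pass, with a log2FC of −0.999 for Myf5, −1.93 for Myod1, −0.157 for Cdh15, 2.055 for Des and 1.40 for Itga7. DESeq2 also called Myod1 lower, and Des and Itga7 higher. The 6 markers summed to 2671 and 1447 CPM in MB and to 2427 and 4634 CPM in MT. The MT libraries stood further apart from each other (Pearson r 0.938 across genes on log2(CPM + 1)) than the MB libraries (0.972), and 28599 genes had at least 1 count in MT replicate 1 against 17965 in MT replicate 2. Each result on MT is therefore given with and without MT replicate 1 where the call differs. Markers of other cell types also differed between the MT libraries. The summed level of 10 fibroblast markers was 68.0 and 35.7 CPM in MB and 493 and 152 CPM in MT, with Tcf21 at 0 in every library, 4 of the 10 at 0 in each MB library and 2 of the 10 in each MT library. Most of the sum in MT was Dcn, and the other 9 markers summed to 68.0 and 35.4 CPM in MB and 84.9 and 42.0 CPM in MT. The endothelial markers Pecam1, Cdh5, Kdr and Tek summed to 0.245 and 0.241 CPM in MB and to 11.3 and 0.254 CPM in MT, and 3 of the 4 were at 0 in each MB library and in MT replicate 2. The macrophage markers Ptprc, Adgre1, Csf1r and Cd68 summed to 1.72 and 1.09 CPM in MB and to 16.8 and 2.93 CPM in MT, and 2 of the 4 were at 0 in each MB library and in MT replicate 2. The part of these cells in the results below was not tested, and in bulk RNA fewer cells of a type and less RNA per cell cannot be told apart.

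MT and MB were compared to ask how these enzymes change when MB become MT. Lox, Loxl1, P4ha1, P4ha2 and Plod2 were higher in MT, from 4.63-fold for P4ha1 to 69.5-fold for Lox, while P4ha3, P4hb, Plod1 and Plod3 did not pass the test. Thus 5 of the 9 members tested were called higher and 0 lower, where a call needed an adjusted p under 0.05 and an absolute log2FC over 0.5. Over all 12921 genes tested, 11% were called higher and 6.86% lower. With edgeR at an unadjusted p under 0.05, Plod1 was also higher and 0 members were lower, and DESeq2 and the likelihood ratio test likewise called 5 higher and 0 lower. The median log2FC was 2.23 over the 9 members tested and 0.07 over all genes tested. All 9 passed the filter on low counts through the MB libraries as well as through the MT libraries. Loxl2 did not pass it and was not tested. Without MT replicate 1, 3 of the 9 were called higher (P4ha2, Lox and Loxl1). The same MB libraries are the controls of the lactate comparison on which the genes were picked.

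**Figure D1:**
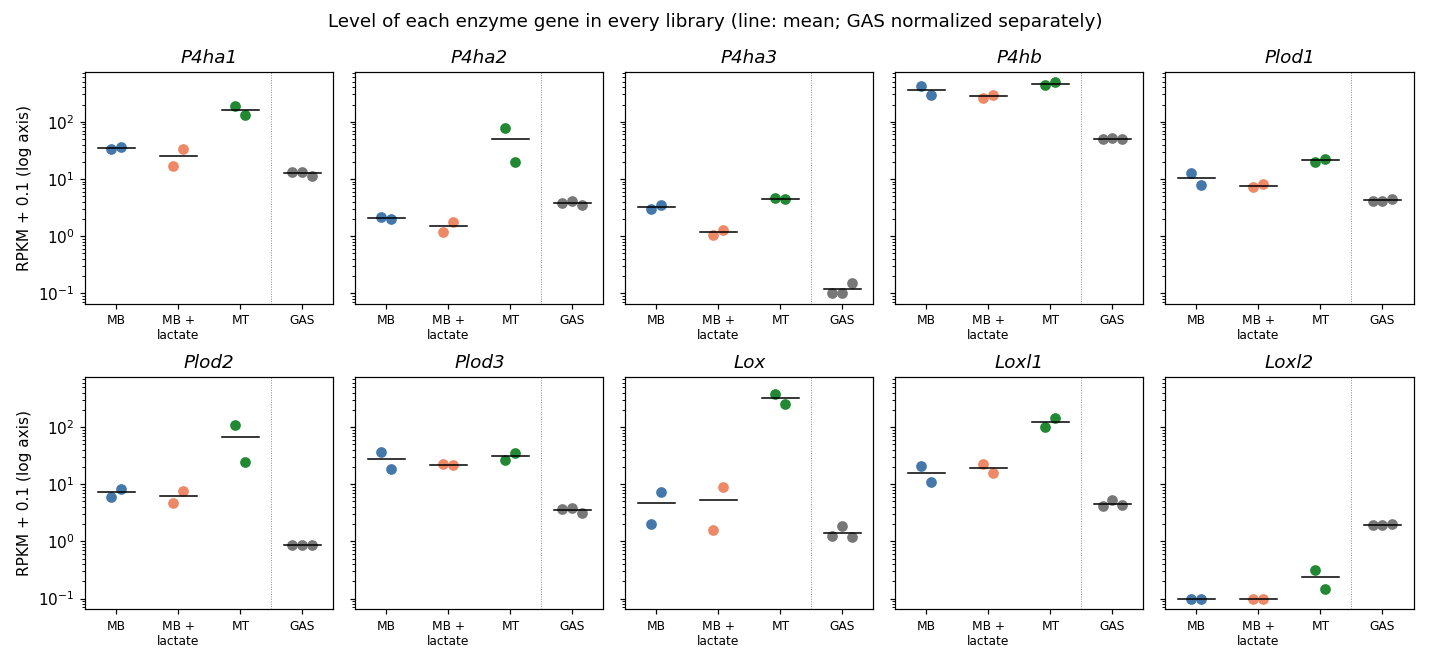
RPKM + 0.1 of each of the 10 genes (log axis) in every library of MB, lactate-treated MB (MB + lactate), MT and GAS, with a line at each group's mean. Both MT points of Lox, at 384 and 252 RPKM, lie above both MB points, at 1.90 and 7.24 RPKM, and the GAS points right of the dotted line were normalized separately from the cultured cells.

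Among the alpha subunits of prolyl 4-hydroxylase, P4ha1 was the most abundant in MB and MT. P4ha1 measured 137 and 148 CPM in MB and 791 and 530 CPM in MT. Both MT libraries were above both MB libraries, with a log2FC of 2.23 ± 0.51 (SE, n = 2 and 2, edgeR adjusted p = 0.0135), and without MT replicate 1 the log2FC was 1.83 and the call was lost (edgeR adjusted p = 0.115). P4ha2, which encodes an alpha subunit found in many mesenchymal tissues, measured 12.8 and 11.7 CPM in MB and 494 and 122 CPM in MT. The groups were far apart, but the MT libraries differed from each other by 4.04-fold. The log2FC of P4ha2 was 4.70 ± 0.73 (SE, n = 2 and 2, edgeR adjusted p = 0.00203) and it was called in all 12 other settings tried, with a log2FC from 3.25 to 5.23.

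P4ha3, the least studied alpha subunit gene, measured 9.19 and 10.7 CPM in MB and 14.1 and 13.7 CPM in MT. Although both MT values were higher, the difference was small beside the estimated error, with a log2FC of 0.49 ± 0.54 (SE, n = 2 and 2, edgeR adjusted p = 0.573). P4hb, which also acts as a general disulfide isomerase, measured 1216 and 838 CPM in MB and 1272 and 1396 CPM in MT. It was the most abundant of the 10 genes per exon length in every group, and its log2FC was 0.36 ± 0.56 (SE, n = 2 and 2, edgeR adjusted p = 0.699).

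Transcripts of beta and alpha subunits stood in different proportions in MB and MT. The ratio of P4hb RPKM to the summed RPKM of P4ha1, P4ha2 and P4ha3 was 11.1 and 7.10 in MB and 1.61 and 3.20 in MT, with both MT libraries below both MB libraries. In GAS the ratio was 2.98, 3.04 and 3.35. P4ha2 made up 5.33% and 4.54% of the summed alpha subunit RPKM in MB and 28.7% and 12.8% in MT. P4ha3 made up 7.65% and 8.29% in MB and 1.63% and 2.87% in MT. These shares, for which no test was run, depend on the length assigned to P4ha2. With the length of the longest transcript instead of all exons, the P4ha2 share was 9.93% and 8.51% in MB and 44.5% and 22.6% in MT.

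Among the lysyl hydroxylases, only Plod2 passed the test between MT and MB. Plod2, the telopeptide lysyl hydroxylase, measured 31.9 and 44.2 CPM in MB and 595 and 129 CPM in MT. Both MT libraries were above both MB libraries, and MT replicate 1 was 4.61-fold above MT replicate 2. The log2FC was 3.31 ± 0.71 (SE, n = 2 and 2, edgeR adjusted p = 0.0103), and without MT replicate 1 it was 1.71 and the call was lost (edgeR adjusted p = 0.136). Plod1, which hydroxylates lysines of the helix, measured 85.1 and 53.2 CPM in MB and 133 and 153 CPM in MT. Its groups did not overlap, but the log2FC of 1.02 ± 0.45 did not pass the test (SE, n = 2 and 2, edgeR adjusted p = 0.144). Plod3, which also adds sugars to hydroxylysine, measured 163 and 82.1 CPM in MB and 122 and 155 CPM in MT. These groups overlapped, and the log2FC was 0.14 ± 0.48 (SE, n = 2 and 2, edgeR adjusted p = 0.869). Plod3 shares 529 bases of exon with Znhit1 on the opposite strand, and as the handling of strand is not given in the sources used here, reads in that stretch cannot be assigned.

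Of the summed lysyl hydroxylase RPKM, Plod2 made up 10.9% and 24% in MB and 70.3% and 29.6% in MT. Plod3 held the largest share in both MB libraries, 66.1% and 53.1%, and in MT replicate 2, 42.5%, whereas Plod2 did so in MT replicate 1. The order of the lysyl hydroxylases therefore differed between the MT libraries.

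The lysyl oxidases included the gene with the largest change of the 9 members tested. Lox, which starts the crosslinking of collagen and elastin, measured 9.07 and 34.6 CPM in MB and 1833 and 1203 CPM in MT. Its MB libraries differed by more than those of any other member tested, and both MT libraries lay far above them. The log2FC of Lox was 6.18 ± 0.81 (SE, n = 2 and 2, edgeR adjusted p = 0.00077), and it was called in all 12 other settings, with a log2FC from 5.42 to 7.23. Loxl1, which is needed for elastic fibers, measured 69.4 and 35.1 CPM in MB and 326 and 471 CPM in MT. Here MT replicate 2 was the higher one, and the log2FC was 2.89 ± 0.54 (SE, n = 2 and 2, edgeR adjusted p = 0.0053). Loxl1 was also called in all 12 other settings, with a log2FC from 2.36 to 3.46.

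Loxl2, whose enzyme crosslinks collagen IV of the basement membrane, had 0 counts in both MB libraries, 0 in both lactate-treated libraries, 16 counts in MT replicate 1 and 2 counts in MT replicate 2. Against a floor of 3 counts in each MB library, the mean of the MT libraries was at least 1.98-fold higher, but MT replicate 2 alone was under the floor. In GAS it had 194, 193 and 195 counts. Lox held 8.28% and 40.5% of the summed RPKM of Lox, Loxl1 and Loxl2 in MB and 79.5% and 63.8% in MT. Thus Loxl1 was the main transcript of these 3 in MB and Lox in MT. Loxl3, a lysyl oxidase outside the 10 genes, was named after its values were seen. It measured 27.2 and 22.4 RPKM in MB, above Loxl1 at 21.0 and 10.6 RPKM, and 28.4 and 20.9 RPKM in MT.

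**Figure D2:**
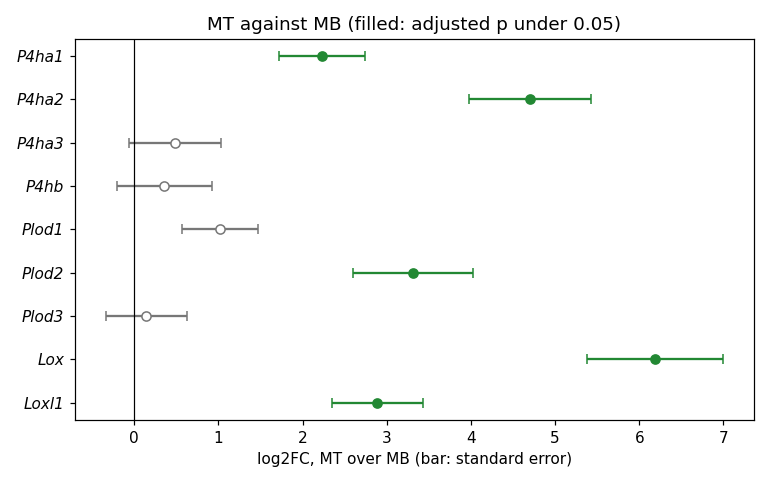
Log2FC of MT over MB for the 9 members tested, with bars for the standard error and filled points for those called. Lox is farthest right at 6.18 and P4ha2 next at 4.70, while the open points of P4ha3, P4hb, Plod1 and Plod3 lie between 0.14 and 1.02.

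**Figure D3:**
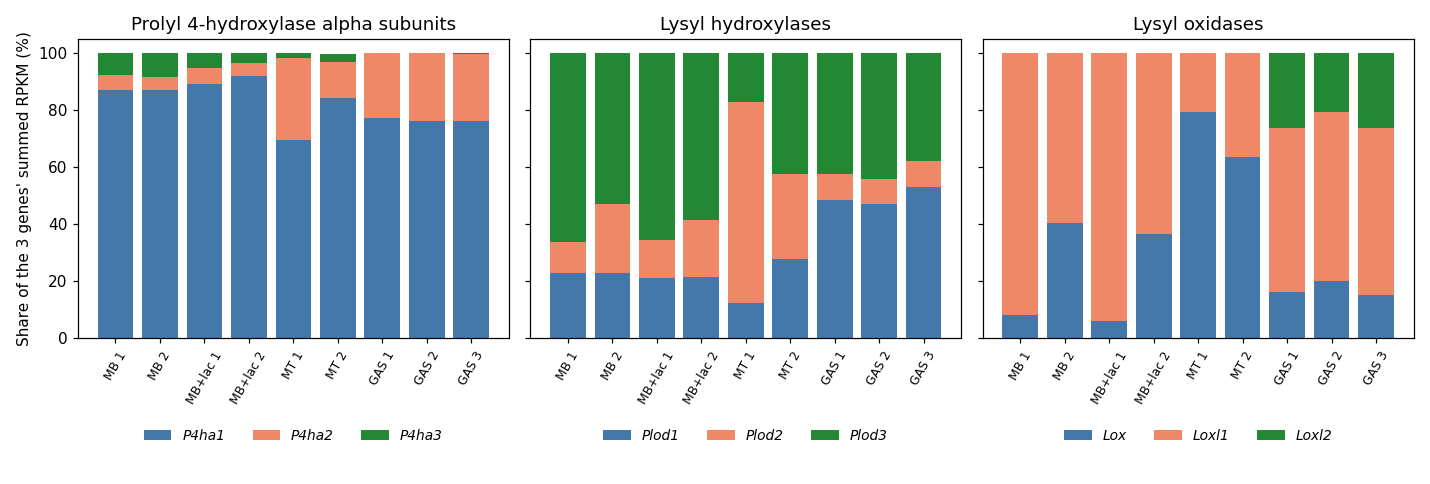
Share (%) of each gene in the summed RPKM of the 3 members of its kind, in each library of MB, lactate-treated MB (MB+lac), MT and GAS. The P4ha2 share is 28.7% and 12.8% in MT against 5.33% and 4.54% in MB, the Plod2 share is 70.3% in MT replicate 1 alone, and the Loxl2 share is visible in GAS, at 26.3%, 20.7% and 26.3%.

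The substrates of these enzymes were also compared. Of 19 genes for collagen chains and elastic fiber proteins, 17 were tested and 16 were called higher in MT, with a median log2FC of 4.66. Col1a1, a chain of collagen I, measured 0.980 and 0.482 CPM in MB and 13120 and 1762 CPM in MT (log2FC 13.34 ± 1.57, SE, edgeR adjusted p = 0.000395). Its partner chain Col1a2, named after its values were seen, measured 1.59 and 1.69 CPM in MB and 31.9 and 2.16 CPM in MT (log2FC 3.44 ± 1.08, SE, edgeR adjusted p = 0.0496). Col1a2 was not called without MT replicate 1, with RLE size factors, with crossed replicate numbers or with all cultured libraries in one fit. The mean RPKM of Col1a1 and Col1a2 was 1133 and 1.37 in MT and 9.87 and 8.43 in GAS. Col6a2, a chain of collagen VI, measured 0 CPM in both MB libraries and 285 and 187 CPM in MT, at least 647-fold above the floor of 3 counts in each MB library. Its partner chain Col6a1 measured 5.76 and 2.17 CPM in MB and 926 and 443 CPM in MT (log2FC 7.43 ± 0.81, SE, edgeR adjusted p = 0.000257). Col1a1, Col5a3, Col6a2 and Col15a1 did not reach the count minimum in both MB libraries and so entered the test through MT. Col18a1, named after its values were seen as the 1 gene tested and not called, measured 456 and 323 CPM in MB and 97.8 and 173 CPM in MT (log2FC −1.56 ± 0.49, SE, edgeR adjusted p = 0.0507), and was called lower with DESeq2, with the likelihood ratio test, with crossed replicate numbers and without MB replicate 2. Without MT replicate 1, 15 of the 17 were called higher.

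Other genes that process collagen were mostly not called. Of 24 such genes, 22 were tested, 6 were called higher in MT and 1 lower, with a median log2FC of 0.77. Over all genes tested, 11% were called higher and 6.86% lower. Adamts2, which removes the amino-terminal propeptide, measured 17.9 and 6.27 CPM in MB and 213 and 90.6 CPM in MT (log2FC 3.65 ± 0.68, SE, edgeR adjusted p = 0.00539). Tmem38b, an ion channel of the endoplasmic reticulum, measured 12.5 and 11.9 CPM in MB and 83.7 and 115 CPM in MT (log2FC 3.01 ± 0.46, SE, edgeR adjusted p = 0.00204). Tll1, which like Bmp1 cleaves the carboxy-terminal propeptide, was at 0 CPM in MB and at 2.38 and 2.16 CPM in MT, at least 6.23-fold above the floor, and entered the test through MT. The others called higher, named after their values were seen, were the prolyl isomerase Fkbp14 (log2FC 2.44), the prolyl 3-hydroxylase P3h1 (1.87) and Bmp1 (1.59). Pcolce2, which enhances propeptide cleavage, measured 131 and 161 CPM in MB and 23.6 and 23.4 CPM in MT (log2FC −2.62 ± 0.44, SE, edgeR adjusted p = 0.003). Without MT replicate 1, 4 were called higher (Adamts2, Fkbp14, Tll1 and Tmem38b) and Pcolce2 lower.

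As several members are known hypoxia targets, 15 genes of the hypoxia response were set beside them. Of the 14 tested, 4 passed the test and were higher in MT, with a median log2FC of 0.90 over those tested, and without MT replicate 1 the only call was Bnip3. Bnip3, a mitophagy receptor, measured 40.7 and 47.0 CPM in MB and 947 and 205 CPM in MT (log2FC 3.77 ± 0.74, SE, edgeR adjusted p = 0.00678). Ankrd37 measured 2.70 and 2.05 CPM in MB and 22.3 and 14.4 CPM in MT (log2FC 2.96 ± 0.65, SE, edgeR adjusted p = 0.0113). Ndrg1 measured 16.5 and 5.18 CPM in MB and 98.7 and 39.8 CPM in MT (log2FC 2.67 ± 0.70, SE, edgeR adjusted p = 0.025). The remaining call, named after its values were seen, was Pdk1, a kinase that restrains pyruvate oxidation (log2FC 2.44). These 4 genes were higher in MT replicate 1 than in MT replicate 2, and so was every other gene of this list but Aldoa. Among the members tested, P4ha1, P4ha2, P4ha3, Plod2 and Lox were higher in MT replicate 1. P4hb, Plod1, Plod3 and Loxl1 were lower there. Over all genes tested, 11% were called higher. Of the genes not called, named after their values were seen, Eno1 (log2FC −0.80), Pgk1 (−0.63) and Ldha (−0.21) had a negative log2FC. The others not called had a positive one, from 0.31 for Slc2a1 to 2.34 for Mxi1. A part of hypoxia in these values was not tested.

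**Figure D4:**
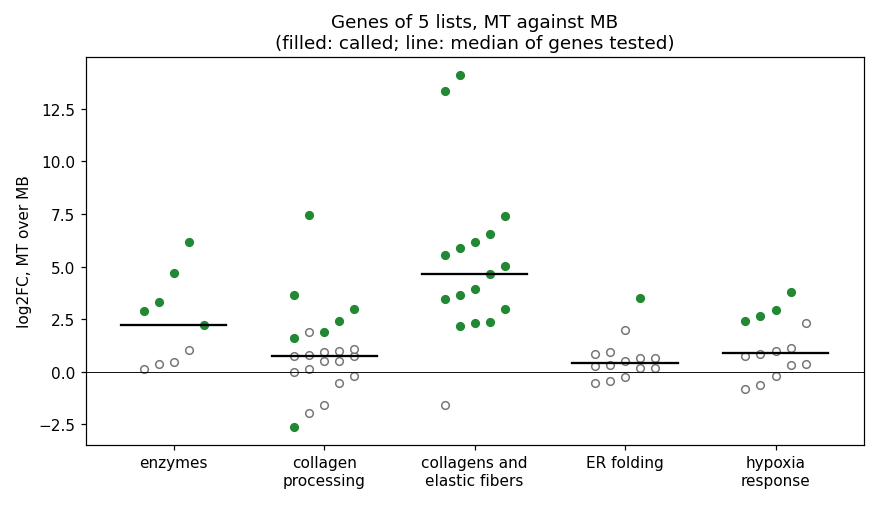
Log2FC of MT over MB for the genes tested in 5 lists (the enzymes described here, other collagen processing genes, collagens and elastic fiber proteins, endoplasmic reticulum (ER) folding genes and hypoxia response genes), with filled points for genes called and a line at each median. The medians are 2.23, 0.77, 4.66, 0.40 and 0.90 in this order.

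Lactate-treated and control MB were compared to ask what lactate does to gene expression in MB. P4ha3 was lower in lactate-treated MB in both libraries with the same replicate number, whereas P4ha1 was clearly lower in replicate 1 alone. Both were the reason for choosing these genes, and all values of this comparison are given without a test. P4ha3 had 75 and 89 counts in control MB and 17 and 21 counts in lactate-treated MB, that is 9.19 and 10.7 CPM against 2.99 and 3.73 CPM. The ratio was 0.325 in replicate 1 and 0.348 in replicate 2, and the 95% exact intervals of the log2 ratio, which cover counting error only, were −2.48 to −0.85 and −2.28 to −0.82. P4ha3 was among the 20 of 11804 genes (0.169%) that were more than halved at both replicate numbers. Nothing is read from this share, since P4ha3 was picked for its fall. The fitted log2FC, from a model without the replicate number, was −1.59 ± 0.54 (SE).

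P4ha1 measured 137 and 148 CPM in control MB and 69.0 and 136 CPM in lactate-treated MB. The ratio was 0.503 in replicate 1 (log2 interval −1.16 to −0.82) and 0.915 in replicate 2 (−0.26 to 0.00). These intervals did not overlap, and the fitted log2FC of −0.50 ± 0.47 (SE) was −1.12 without lactate-treated replicate 2 and −0.06 without lactate-treated replicate 1. P4ha2 followed the same order, with 12.8 and 11.7 CPM in control MB and 6.85 and 10.3 CPM in lactate-treated MB. P4hb measured 1216 and 838 CPM in control MB and 758 and 837 CPM in lactate-treated MB, a ratio of 0.624 in replicate 1 and 0.999 in replicate 2.

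For the lysyl hydroxylases, replicate 1 was again the lower one. Plod1 had ratios of 0.566 and 1.02, Plod2 of 0.772 and 0.908, and Plod3 of 0.613 and 1.20. Lox measured 9.07 and 34.6 CPM in control MB and 7.03 and 42.5 CPM in lactate-treated MB, so that the libraries numbered 2 were high and those numbered 1 low with either treatment. The fitted log2FC of Lox moved from −1.71 to 1.45 when single libraries were left out. Loxl1 was higher in lactate-treated MB at both numbers, with ratios of 1.07 and 1.44, although its 4 libraries overlapped.

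Of the 9 members in this comparison, 5 were lower at both replicate numbers (P4ha1, P4ha2, P4ha3, P4hb and Plod2), beside 20.3% of all 11804 genes. In 4 of the 9 (P4ha1, P4ha2, P4ha3 and P4hb) both lactate-treated libraries were below both controls, beside 6.84% of all genes. Nothing is read from these counts, since the contrast chose the members. The median log2 ratio of the 9 was −0.71 in replicate 1 and 0.00 in replicate 2, against 0.06 and −0.02 over all genes, so the low ratios of the members were mostly those of the libraries numbered 1. The collagen substrates showed the same division, with a median log2 ratio of −1.52 in replicate 1 and 0.37 in replicate 2 over 13 genes.

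**Figure D5:**
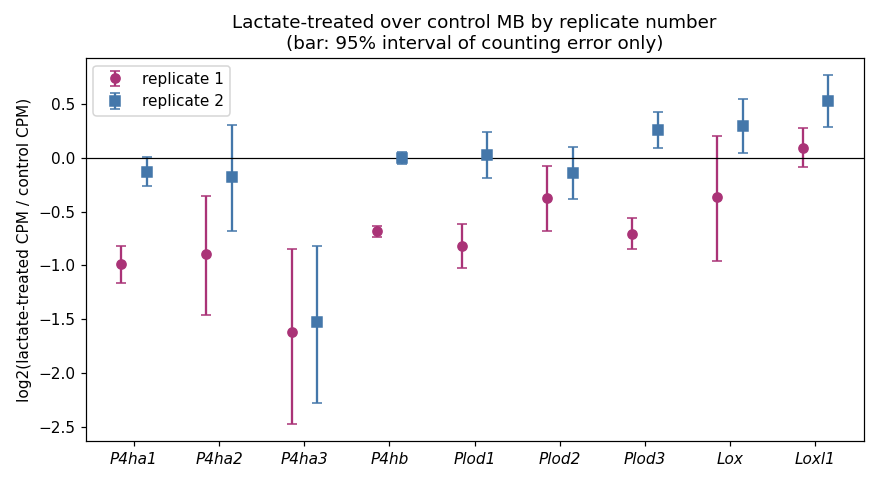
Log2 ratio of lactate-treated to control CPM in MB for 9 genes, separately for replicate numbers 1 (circles) and 2 (squares), with 95% intervals of counting error only. P4ha3 lies near −1.6 in both, at −1.62 and −1.52, while P4ha1 lies at −0.99 in replicate 1 and −0.13 in replicate 2.

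In GAS, 9 of the 10 genes were detected above the floor, and the replicates were close. In RPKM, the order of levels was P4hb at 50.3 ± 1.4 (SD, n = 3 in all), P4ha1 at 12.4 ± 1.0, Loxl1 at 4.44 ± 0.64, Plod1 at 4.14 ± 0.19, P4ha2 at 3.75 ± 0.31, Plod3 at 3.46 ± 0.34, Loxl2 at 1.83 ± 0.03, Lox at 1.32 ± 0.38, Plod2 at 0.761 ± 0.010 and P4ha3 at or below the floor. The neighbours from Loxl1 to Plod3 overlapped in their replicate values and were not distinguished, whereas the others did not overlap. P4ha3 had 0, 0 and 3 counts, and its highest value was 0.0497 RPKM. P4ha2 measured 23.5, 25.2 and 21.4 CPM in GAS and held 22.6%, 23.7% and 23.4% of the alpha subunit RPKM. Lox, the second most abundant of the 10 genes in MT, stood in eighth place here, with 5.43, 8.40 and 5.14 CPM. Loxl2, at 0 counts in MB, measured 9.85, 9.77 and 10.1 CPM. GAS holds fibers, fibroblasts, vessels and other cells, and its fibroblast markers summed to between 443 and 532 CPM. Poly(A) RNA was sequenced for GAS and Smart-seq2 was used for the cultured cells, so no test was run between them. With the length of the longest transcript, P4ha2 had 7.64 RPKM, Plod1 6.84, Plod3 4.77 and Plod2 1.12, which moves P4ha2, Plod1 and Plod3 above Loxl1.

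The genes most like P4ha1, Plod2 and Lox over the 6 cultured libraries were found by the Pearson correlation of log2(CPM + 1) among 8877 genes. These values share the same libraries and describe the difference between MT and MB as well as that between the MT libraries. The closest to P4ha1 were Tram2, a protein of the translocation channel of the endoplasmic reticulum (r = 0.998), Os9 (0.994) and Leprot (0.994). The closest to Plod2 were Acot2 (0.997), the growth factor gene Tgfb2 (0.996) and Bnip3 (0.994), and the closest to Lox were Stam2 (0.998), Kctd11 (0.997) and Blzf1 (0.997).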

How the data were processed

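RNA was sequenced from GAS (poly(A) libraries) and from MB, MT and lactate-treated MB (Smart-seq2). Per the labels and the study's methods, the authors trimmed the reads with Trim Galore 0.6.6, aligned them to mm10 with HISAT2 2.2.1 and counted them with featureCounts of Subread 2.0.1. The files were deposited as raw, whole-number counts for each gene, without normalization. The annotation release and the handling of strand and of multiply aligned reads are not given in the sources used here.

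Symbols, coordinates and exon lengths were from GENCODE M21. Normalization used TMM, separately for the 6 cultured and the 3 GAS libraries, and RPKM used the union of exons. MT was tested against MB with edgeR 4.0.16 (R 4.3.3): its filter on low counts, the quasi-likelihood test and Benjamini-Hochberg adjustment over all genes tested, with calls at an adjusted p under 0.05 and an absolute log2FC over 0.5. The model held the group only, also for the fitted lactate values. The SE is the absolute log2FC divided by the square root of the quasi-likelihood F statistic. The fit was tested on simulated data. Ratios of 2 libraries carry exact 95% binomial intervals. Biological coefficients of variation were 0.425 (MT and MB) and 0.455 (lactate). Figures were drawn with matplotlib 3.10.9.

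The members, gene lists and tests were chosen with earlier results of these data known. Named are the members, up to 3 genes of each list and direction with the largest log2FC among those called, every gene of lists of up to 6, and the 3 genes most like P4ha1, Plod2 and Lox with a mean over 10 CPM. Alternatives were DESeq2 1.42.0, RLE size factors, other filters, all cultured libraries in one fit, a replicate block, the length of the longest transcript and leaving out each library. Added after the data were seen were a likelihood ratio test, crossed replicate numbers, fibroblast markers without Dcn and the alternatives for the other lists. Data on chromatin and other samples were not used here.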

Additional observations from a re-analysis of the deposited data

How the results depend on the processing

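Of the 108 alternative log2FC values of the members between MT and MB, 103 kept their direction and call. The exceptions came from leaving out single libraries. P4ha1 (1.83) and Plod2 (1.71) lost their calls without MT replicate 1. Leaving out each library, the small log2FC of P4hb lay between −0.024 (without MB replicate 2) and 0.627, and that of Plod3 between −0.391 (without MB replicate 2, and −0.134 without MT replicate 2) and 0.709. When each library was left out, between 3 and 5 members were called higher, between 962 (without MT replicate 1) and 4118 (without MT replicate 2) of all genes were called higher, between 270 (without MT replicate 1) and 1570 (without MB replicate 2) lower, and between 1 and 2 collagen processing genes lower (2 without MT replicate 2 or MB replicate 2). A lone library of a group was then assumed to vary like the others. Without a filter, the median log2FC over the 30070 genes then tested was 1.82 instead of 0.07. With at least 10 counts in every library, 766 genes were called higher, and the likelihood ratio test called 1343 lower. DESeq2, the likelihood ratio test and no filter on low counts each called 2 collagen processing genes lower instead of 1. The cause was not tested. Libraries with the same replicate number deviated together in lactate-treated and control MB (r = 0.713) and not in MT and MB (r = −0.13). With the replicate block, 1447 genes were called higher, 824 lower and 5 members higher, and the block changed no call of a member. With crossed numbers, 1192 were called higher and 867 lower. Counts of P4ha3 in GAS and of Loxl2 in MB were at or under the floor, so their levels there are not resolved below it.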

Other observations

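Genes of protein folding in the endoplasmic reticulum, where prolyl 4-hydroxylase works, were compared between MT and MB as well. Of 14 such genes, 1 passed the test, with a median log2FC of 0.40. The share called higher over all genes tested was 11%. The gene called was Ero1l, the oxidase that recharges protein disulfide isomerases, which measured 28.6 and 59.3 CPM in MB and 861 and 81.3 CPM in MT (log2FC 3.52 ± 0.94, SE, edgeR adjusted p = 0.0262). MT replicate 1 alone was far above MB, and without it Ero1l was not called. Without any 1 of the other MT and MB libraries, Pdia5, a disulfide isomerase named after its values were seen, was called higher besides Ero1l. With crossed replicate numbers, Ero1l was not called. DESeq2, the likelihood ratio test and no filter on low counts also called both Pdia5 and Ero1l higher. In GAS, Ero1l measured 6.40, 7.44 and 7.06 CPM.

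Of the 10 fibroblast markers, 5 were tested and 1 was called higher in MT. It was Dcn, a proteoglycan that binds collagen fibrils, which had at most 0.241 CPM in MB, 408 and 110 CPM in MT and between 230 and 314 CPM in GAS. The mean of MT was at least 711-fold above the floor of 3 counts in each MB library, and without MT replicate 1 the gene was still called. Dcn reached the count minimum in MT alone and so entered the test through MT. Twist2, a transcription factor named after its values were seen, measured 17.5 and 4.58 CPM in MB and 0.894 and 3.43 CPM in MT (log2FC −2.46 ± 0.91, SE, edgeR adjusted p = 0.0865), and was called lower with DESeq2, with the likelihood ratio test and without MT replicate 2 or MB replicate 2.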
